A study of Mus musculus with 18 samples.

Results

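The genes described here encode the 26 subunits of core Mediator (head, middle, tail and the parts that join them) and the 12 subunits of RNA polymerase II. They were taken by symbol from a table of 24341 genes measured in mouse hearts. All 38 were found, and all 38 passed the filter on low values (at least 1 FPKM in at least 3 libraries) that left 12587 genes for testing. FPKM is a level scaled for transcript length and library size. The 7 genes of the Mediator kinase module, to which Med13 belongs, are not among them.

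Mediator is a large coactivator that sits between DNA-bound transcription factors and RNA polymerase II. Its head and middle contact the polymerase, its tail receives most activators, and Med14 holds the parts together. The kinase module binds the core reversibly and, while bound, keeps the polymerase away. Nuclear receptors, thyroid hormone receptors among them, contact Mediator mainly through Med1, which has made this pair a textbook case of hormone-dependent transcription. The polymerase itself is built around its catalytic subunits Polr2a and Polr2b, and some of its small subunits also serve RNA polymerases I and III.

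The hearts came from C57BL/6 mice aged 12 weeks, either with a cardiac knockout of Med13 (labelled cKO) or wild type (WT). From 8 weeks of age the mice ate, for 4 weeks, a diet with propylthiouracil (PTU), which blocks thyroid hormone synthesis, or normal chow, and some PTU mice then had 3 daily injections of triiodothyronine (T3), the active hormone. The 6 groups, of 3 libraries each, were cKO PTU+T3, cKO PTU, cKO chow, WT PTU+T3, WT PTU and WT chow. No vehicle injection is recorded here for the groups without T3, so T3 and the injections themselves cannot be told apart. Per the labels RNA was polyadenylated RNA from hearts, and what drives the deletion is not named there. Whether the libraries of a group come from different animals is not stated either, so each p-value reflects the scatter among libraries, which may be technical.

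Med13, the gene of the genotype label, had 5.83 ± 0.713 FPKM in hearts labelled cKO and 5.87 ± 0.596 FPKM in WT hearts (SD, n = 9 each). Averaged over treatments this gave a log2 fold change of -0.01 (limma, adjusted p = 0.99998), so the gene-level value did not separate the genotypes, and directions between genotypes rest on the labels. The hormone-induced gene Hr averaged 55.5 FPKM with PTU+T3, 1.17 FPKM on PTU and 6.504 FPKM on chow (n = 6 each), highest with T3 and lowest on PTU. The myosin genes set only the PTU hearts apart, with Myh6 at 3188, 210 and 3359 FPKM and Myh7 at 202, 2744 and 151 FPKM with PTU+T3, on PTU and on chow. Ventricular markers were high in every heart, and the summed level of the atrial genes Sln, Myl4 and Myl7 varied between single hearts from 27.0 to 2454 FPKM. In each group the 1 heart with the highest such sum is called atrial-rich here, and member calls that change without these hearts, which leaves 2 hearts in each group, are named. The name is relative to the group. On chow the hearts so named had 209 FPKM in cKO and 389 FPKM in WT. WT PTU+T3 replicate 3, not so named, had 417 FPKM. Depth is unknown, since the values are not counts. In bulk hearts, fewer cells of a type and less RNA per cell cannot be told apart.

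The promoters of the members that moved most with T3 are shown first, the pair with the largest rise and the pair with the largest fall. Each is the 250 bases before the annotated start, from RefSeq on GRCm38.p6, and the first listed start of each gene was used. Capitals mark matches to the motifs searched, on either strand. Polr2l lies on the minus strand at chr7:141475154-141475403, Med21 on the plus strand at chr6:146642329-146642578, Med25 on the minus strand at chr7:44892425-44892674 and Polr2e on the minus strand at chr10:80039660-80039909. In GENCODE M21 the gene Med25 starts at 44892712, so its window lies inside the gene there. The GENCODE starts of Polr2e (80039795) and Med21 (146642547) fall within their windows.
Polr2l: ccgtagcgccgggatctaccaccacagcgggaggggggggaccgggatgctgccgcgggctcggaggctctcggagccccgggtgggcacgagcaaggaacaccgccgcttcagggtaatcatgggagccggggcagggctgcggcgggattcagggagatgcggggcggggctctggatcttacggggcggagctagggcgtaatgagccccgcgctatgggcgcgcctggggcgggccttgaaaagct
Med21: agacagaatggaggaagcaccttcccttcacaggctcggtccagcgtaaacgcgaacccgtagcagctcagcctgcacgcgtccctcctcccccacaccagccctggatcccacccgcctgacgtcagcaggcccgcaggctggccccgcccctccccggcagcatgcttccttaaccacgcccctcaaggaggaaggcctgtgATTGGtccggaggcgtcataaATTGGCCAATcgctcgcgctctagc
Med25: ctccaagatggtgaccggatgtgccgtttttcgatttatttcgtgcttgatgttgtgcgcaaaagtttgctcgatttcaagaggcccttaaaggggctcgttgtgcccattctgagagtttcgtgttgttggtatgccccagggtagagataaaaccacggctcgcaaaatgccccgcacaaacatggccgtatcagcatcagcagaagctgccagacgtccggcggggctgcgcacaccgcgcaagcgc
Polr2e: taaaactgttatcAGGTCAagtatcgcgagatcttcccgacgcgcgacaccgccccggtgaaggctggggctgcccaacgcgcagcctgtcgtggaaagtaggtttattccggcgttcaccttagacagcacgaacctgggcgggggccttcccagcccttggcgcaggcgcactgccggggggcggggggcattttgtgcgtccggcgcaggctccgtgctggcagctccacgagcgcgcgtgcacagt
The motifs were the thyroid hormone receptor half-site AGGTCA, its direct repeat with a gap of 4 bases, an ETS-type site CCGGAAG, the NRF1 palindrome, a YY1-type site AAGATGGC, the CCAAT box CCAAT and the TATA box TATAAA. Med21 carried 3 CCAAT matches, of which a pair lie end to end on opposite strands, and Polr2e carried 1 half-site. The other 2 promoters shown held none of the 7 motifs.

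Among all members, 31 of 38 had a promoter in the table, which spans 300 bases, 250 before and 50 after the start. Of the 31, 12 belonged to genes that rose with T3, 7 to genes that fell and 12 to genes not called. The half-site was present in 9 of the 31 (3 of the rising, 2 of the falling and 4 of the genes not called), against 16.0% of all 27025 promoters. The CCAAT box was present in 13 (6 rising, 0 falling, 7 not called), against 37.9% of all promoters. The ETS-type site was present in 10 (4 rising, 0 falling, 6 not called), against 9.12%. The TATA box was found in 5, against 14.2%, and the YY1-type site in 1, against 2.88%. The direct repeat and the NRF1 palindrome were found in 0 of the 31, against 0.0111% and 0.977% of all promoters. Members' promoters had a median GC content of 57.7% and 22 CpG dinucleotides, against 52.7% and 7 over all promoters. The 27025 promoters were not limited to the 12587 tested genes, so they are not a background of genes expressed in these hearts. These are matches of letters in a short window, described without a test, and no match says only that these letters are not in the window. Any direct repeat is also counted as a half-site.

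Levels of the members spanned an 81.0-fold range of mean FPKM over the 18 hearts. Polymerase subunits stood higher, with a median of 51.8 FPKM against 11.9 FPKM for core Mediator and 8.97 FPKM over all tested genes. Polr2f led at 116 FPKM, followed by Polr2e at 97.4, Polr2j at 65.9, Polr2g at 63.6, Polr2c at 61.1 and Polr2k at 58.2 FPKM. The range of single hearts overlapped between each of these and the next in order. The catalytic Polr2a, the largest subunit, was the lowest of the polymerase at 10.7 FPKM, a 10.8-fold range within one enzyme. Core Mediator ran from Med21 at 48.5 FPKM and Med25 at 35.2 FPKM to Med18, part of the head's movable jaw, at 1.43 FPKM, a 34.0-fold range. Across the 38 genes and 18 hearts single values lay between 0.944 and 163 FPKM.

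**Figure D1:**
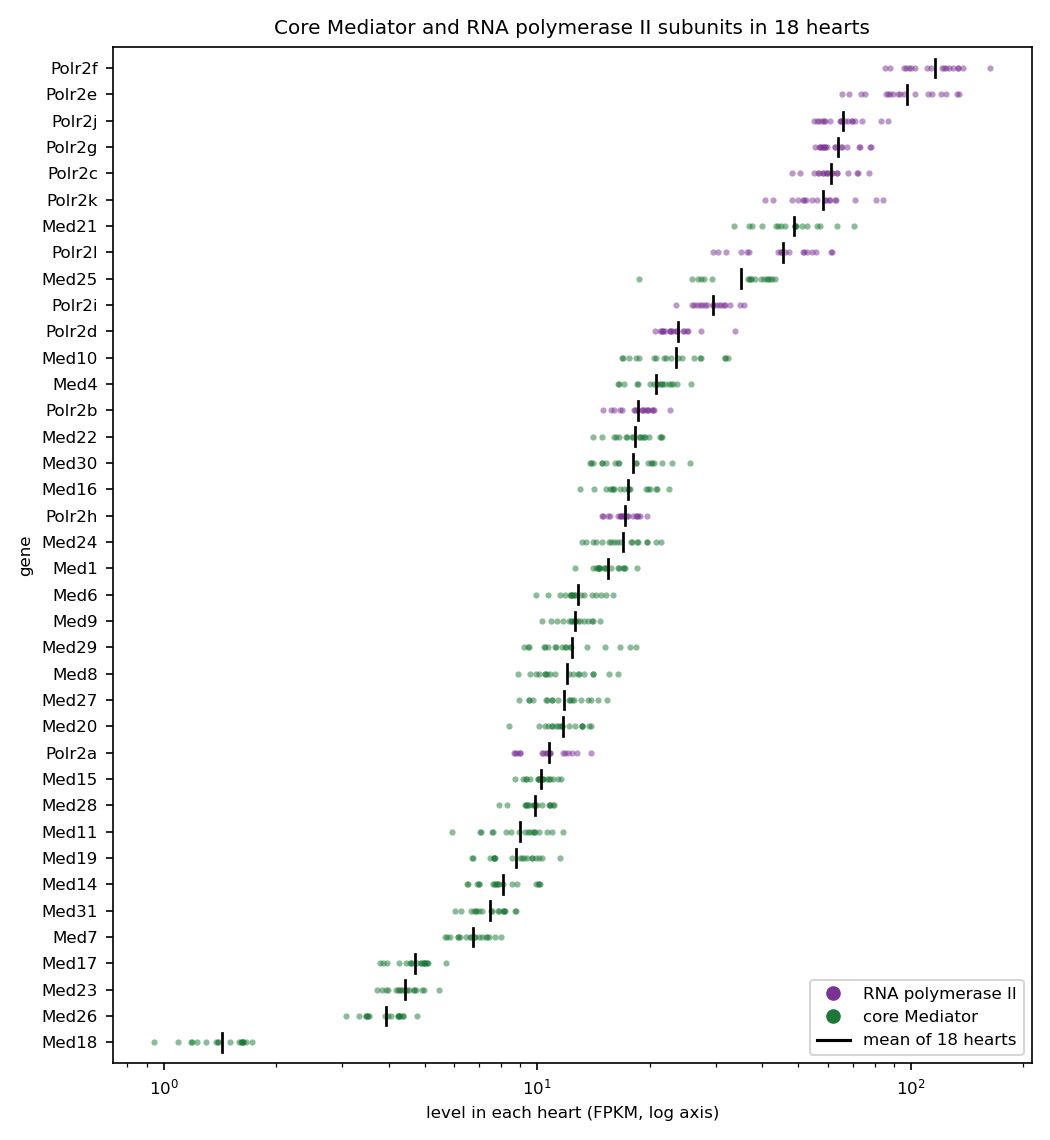
Level of each subunit gene in the 18 hearts, in FPKM on a log axis; points are single hearts, bars are means over all hearts, and colour gives the complex. Polymerase subunits fill most of the upper end, led by Polr2f at 116 FPKM, and Med18 is lowest at 1.43 FPKM.

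The median member varied less between groups than the median gene, though some members varied more. The ratio of the highest to the lowest group mean had a median of 1.31 over the members and ran from 1.09 to 1.76, the last in Polr2l, beside a median of 1.44 over all tested genes. No member (0 of 38) reached a ratio of 2, which 20.0% of tested genes did. The coefficient of variation within groups had a median of 9.75% over the members and 12.4% over all tested genes.

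T3 after PTU, averaged over both genotypes, moved 24 of the 38 members in limma at an adjusted p under 0.05, 16 up and 8 down. That is 63.2% of the members, beside 59.6% of all tested genes (30.3% called higher and 29.3% called lower), so the share called is near the background. The median log2 fold change of the members was 0.12, beside 0.00 over all tested genes, and the median size was 0.24, beside 0.28. The largest member change, 0.70, was exceeded in size by 14.7% of tested genes. Core Mediator had 9 members up and 6 down of 26, and the polymerase 7 up and 2 down of 12. Values of all hearts given T3 lay outside those of all PTU hearts for 11 members, 8 above and 3 below, where 33.9% of tested genes did the same. Within genotypes the groups did not overlap for 24 members in cKO and 16 in WT, beside 55.4% and 50.7% of tested genes.

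**Figure D2:**
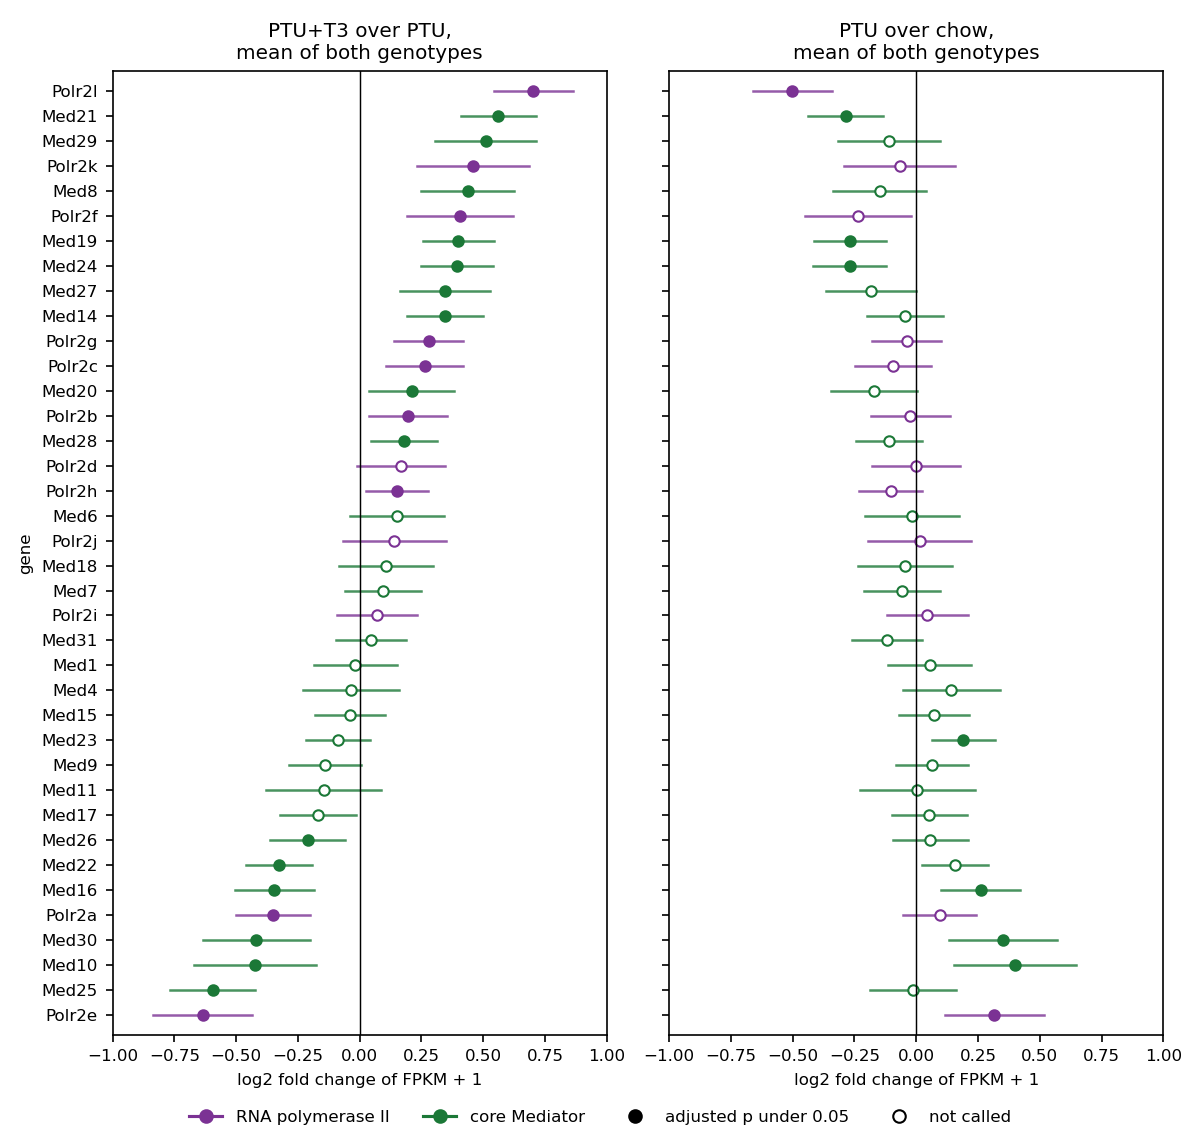
Log2 fold change of FPKM + 1 with its 95% confidence interval for each member, PTU+T3 over PTU (left panel) and PTU over chow (right panel), averaged over genotypes; filled points have an adjusted p under 0.05. Rising and falling genes mix in both complexes, from Polr2l at 0.70 to Polr2e at -0.64 with T3.

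In the head, which contacts the polymerase, 2 of 7 genes rose with T3 and 1 fell. Of all tested genes 30.3% were called higher and 29.3% lower. Med8, a head subunit, stood at 12.8, 15.6 and 14.1 FPKM in cKO PTU+T3 hearts, 8.87, 10.5 and 11.2 FPKM in cKO PTU hearts and 10.1, 12.9 and 12.2 FPKM in cKO chow hearts. WT hearts had 14.1, 12.5 and 16.4 FPKM with PTU+T3, 9.58, 10.6 and 10.8 FPKM on PTU and 9.94, 10.5 and 13.3 FPKM on chow. Each heart given T3 was above each PTU heart (log2 fold change 0.44, SE 0.0887, adjusted p = 0.000515), while chow hearts spread across both. Med22, another head subunit, moved the other way. It had 16.2, 17.3 and 16.1 FPKM in cKO PTU+T3 hearts, 19.9, 18.7 and 21.3 FPKM in cKO PTU hearts and 18.05, 17.4 and 18.8 FPKM in cKO chow hearts. In WT the values were 14.1, 14.9 and 17.9 FPKM with PTU+T3, 21.5, 21.4 and 19.5 FPKM on PTU and 19.1, 19.2 and 16.5 FPKM on chow. No heart given T3 reached the lowest PTU heart (-0.33, SE 0.0627, adjusted p = 0.000319). Med20, partner of Med18 in the jaw, rose by 0.21 (adjusted p = 0.0351), a call lost without any 1 of 7 libraries (adjusted p up to 0.103). The head scaffold Med17 lay at -0.17 and just missed the threshold (adjusted p = 0.0528), and Med6, Med11 and Med18 lay between -0.15 and 0.15.

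The 4 genes at the junction of head and tail were called, Med27, Med28 and Med29 up and Med30 down, where 59.6% of all tested genes were called. Med29 stood at 16.7, 18.4 and 15.2 FPKM in cKO PTU+T3 hearts, 10.5, 9.23 and 10.5 FPKM in cKO PTU hearts and 12.0, 12.2 and 10.7 FPKM in cKO chow hearts. The WT values were 11.1, 13.6 and 17.8 FPKM with PTU+T3, 9.48, 11.2 and 11.9 FPKM on PTU and 9.42, 11.6 and 12.3 FPKM on chow. The separation was complete in cKO, whereas 1 WT heart given T3 lay among the WT PTU hearts (averaged 0.51, SE 0.0969, adjusted p = 0.000289). Med30 had 14.1, 20.3 and 13.9 FPKM in cKO PTU+T3 hearts, 21.5, 18.4 and 25.6 FPKM in cKO PTU hearts and 16.5, 20.1 and 16.2 FPKM in cKO chow hearts. Its WT levels were 14.9, 16.6 and 15.3 FPKM with PTU+T3, 22.9, 19.8 and 20.5 FPKM on PTU and 14.9, 13.9 and 18.4 FPKM on chow. A single cKO heart given T3, at 20.3 FPKM, overlapped the PTU range (-0.42, SE 0.103, adjusted p = 0.00235). Med27 rose by 0.35 (adjusted p = 0.00256) and Med28 by 0.18 (adjusted p = 0.0205), the last lost without any 1 of 3 libraries (adjusted p up to 0.0599). Without the atrial-rich hearts Med27 was at 0.27 and no longer called (adjusted p = 0.0786).

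The middle had 2 of 9 genes up, Med19 and Med21, and 2 down, Med10 and Med26. Again 30.3% of all tested genes were called higher and 29.3% lower. Med21, which pairs with Med7 in the hinge of the middle in yeast, was the most abundant Mediator transcript. It stood at 63.2, 70.5 and 57.0 FPKM in cKO PTU+T3 hearts, 36.8, 43.5 and 37.5 FPKM in cKO PTU hearts and 49.1, 45.0 and 48.8 FPKM in cKO chow hearts. In WT it had 51.0, 56.2 and 52.8 FPKM with PTU+T3, 33.7, 44.1 and 39.9 FPKM on PTU and 49.2, 46.0 and 49.1 FPKM on chow. The treatments formed separate bands in each genotype, with chow between (T3 over PTU 0.56, SE 0.0711, adjusted p = 5.30e-06). Its hinge partner Med7 lay at 0.09 (adjusted p = 0.281). Med19, needed for the hold of Mediator on the polymerase in yeast, had 9.11, 11.5 and 9.70 FPKM in cKO PTU+T3 hearts, 6.74, 6.69 and 7.65 FPKM in cKO PTU hearts and 8.97, 10.1 and 7.65 FPKM in cKO chow hearts. WT hearts had 10.3, 9.37 and 9.95 FPKM with PTU+T3, 7.66, 7.71 and 7.46 FPKM on PTU and 9.20, 8.57 and 9.65 FPKM on chow. Every heart given T3 exceeded every PTU heart (0.40, SE 0.0683, adjusted p = 0.000109).

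Med1, the nuclear receptor contact, had 17.1, 12.6 and 16.6 FPKM in cKO PTU+T3 hearts, 17.2, 14.4 and 14.6 FPKM in cKO PTU hearts and 15.1, 14.1 and 15.2 FPKM in cKO chow hearts. The WT values were 16.4, 15.8 and 14.7 FPKM with PTU+T3, 15.3, 14.5 and 18.5 FPKM on PTU and 16.9, 14.6 and 14.6 FPKM on chow. The groups overlapped throughout, and T3 over PTU was -0.02 with a 95% confidence interval of -0.19 to 0.15 (adjusted p = 0.859). Med10 had a log2 fold change of -0.42 (SE 0.117, adjusted p = 0.00532), and 92.8% of its exon bases overlap the annotated noncoding gene Gm26819 on the other strand. Libraries were made with a kit that does not mark strand, so reads of such a pair cannot be told apart. Med26, which brings elongation factors to the polymerase, fell by 0.21 on the log2 scale (adjusted p = 0.0183). Neither call held without the atrial-rich hearts, where Med10 was at -0.35 (adjusted p = 0.0529) and Med26 at -0.21 (adjusted p = 0.0651). Med4, Med9 and Med31 were not called and lay between -0.14 and 0.05.

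Med14, the backbone, had 9.90, 8.85 and 10.1 FPKM in cKO PTU+T3 hearts, 7.64, 7.59 and 6.99 FPKM in cKO PTU hearts and 7.77, 7.77 and 6.49 FPKM in cKO chow hearts. Its WT levels were 10.2, 10.02 and 8.11 FPKM with PTU+T3, 6.54, 7.91 and 6.997 FPKM on PTU and 8.55, 6.90 and 7.83 FPKM on chow. The hearts given T3 stood above all PTU hearts (0.34, SE 0.0726, adjusted p = 0.000690), and PTU and chow hearts overlapped.

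In the tail, which receives activators, Med24 rose and Med16 and Med25 fell. Med25, itself a docking site for several activators and nuclear receptors, had 25.9, 27.0 and 29.4 FPKM in cKO PTU+T3 hearts, 36.8, 37.4 and 38.3 FPKM in cKO PTU hearts and 41.5, 37.4 and 40.5 FPKM in cKO chow hearts. In WT it had 27.4, 18.7 and 27.97 FPKM with PTU+T3, 42.0, 43.3 and 39.7 FPKM on PTU and 42.4, 41.1 and 36.6 FPKM on chow. All 6 hearts given T3 stood below all 12 others (T3 over PTU -0.59, SE 0.0817, adjusted p = 1.23e-05), and PTU and chow hearts overlapped (PTU over chow -0.01, adjusted p = 0.919). Med24 had 19.6, 20.8 and 18.6 FPKM in cKO PTU+T3 hearts, 13.5, 14.4 and 14.1 FPKM in cKO PTU hearts and 19.6, 17.98 and 16.6 FPKM in cKO chow hearts. WT hearts had 18.5, 15.8 and 21.4 FPKM with PTU+T3, 14.9, 13.2 and 15.6 FPKM on PTU and 16.4, 17.9 and 16.0 FPKM on chow. PTU hearts were the low band here (T3 over PTU 0.39, SE 0.0692, adjusted p = 0.000141).

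Med16, a tail subunit beside Med24, had 15.8, 17.6 and 16.6 FPKM in cKO PTU+T3 hearts, 20.8, 17.5 and 19.5 FPKM in cKO PTU hearts and 16.0, 19.8 and 15.6 FPKM in cKO chow hearts. The WT values were 15.3, 13.0 and 15.9 FPKM with PTU+T3, 20.9, 22.6 and 20.0 FPKM on PTU and 17.7, 17.1 and 14.2 FPKM on chow. The groups given T3 and PTU were apart in WT and touched in cKO (-0.35, SE 0.0754, adjusted p = 0.000918). Med15, a target of activators such as the sterol-responsive factors, lay at -0.04 (adjusted p = 0.624), and Med23, a target of the factor Elk1, at -0.09 (adjusted p = 0.232).

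Among the 7 subunits found only in polymerase II, 3 rose (Polr2b, Polr2c and Polr2g) and 1 fell (Polr2a). These counts stand beside 30.3% of all tested genes called higher and 29.3% lower. Polr2a, whose long tail of repeats is phosphorylated through the transcription cycle, had 8.98, 8.73 and 8.96 FPKM in cKO PTU+T3 hearts, 14.0, 12.7 and 10.3 FPKM in cKO PTU hearts and 10.7, 10.8 and 10.4 FPKM in cKO chow hearts. Its WT levels were 10.6, 8.84 and 8.66 FPKM with PTU+T3, 12.1, 11.9 and 10.8 FPKM on PTU and 12.4, 11.7 and 10.5 FPKM on chow. Hearts given T3 were lower within each genotype (-0.35, SE 0.0700, adjusted p = 0.000439). The other catalytic subunit, Polr2b, rose by 0.20 (adjusted p = 0.0337), a call lost without the atrial-rich hearts (adjusted p = 0.0622) and without any 1 of 6 libraries (adjusted p up to 0.0973). Polr2g, which forms with Polr2d the stalk near emerging RNA, ranged from 62.52 to 78.3 FPKM (median 73.0) with PTU+T3, from 56.6 to 62.47 FPKM (median 58.6) on PTU and from 55.3 to 67.3 FPKM (median 58.9) on chow. It rose by 0.28 with T3 (adjusted p = 0.00181), and Polr2d lay at 0.17 (adjusted p = 0.09998). Polr2c, on which assembly starts, rose by 0.26 (adjusted p = 0.00575), while its assembly partner Polr2j lay at 0.14 (adjusted p = 0.233) and Polr2i, which in yeast serves proofreading, at 0.07 (adjusted p = 0.444). Polr2c shares 18.1% of its exon bases with Dok4 on the other strand, and stretches of it recur nearly unchanged elsewhere in the genome, so its values are less certain. The same holds for overlaps of Polr2i with Tbcb (26.8% of its exon bases), Polr2j with Lrwd1 (15.9%) and Med19 with Zdhhc5 (11.95%), all on the other strand, and for Med16, of which short stretches recur nearly unchanged in Slc3a2 and Zfp7. Other members overlapped tested genes by at most 9.44% of their exon bases. With genes that were not tested, Med20 shared 21.4% (Kpna2-ps), Med7 21.2% (2310031A07Rik) and Med26 12.7% (Gm17435).

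The 5 subunits shared with polymerases I and III were called, 4 up and Polr2e down, beside 59.6% of all tested genes (30.3% higher and 29.3% lower). Polr2l, a small zinc-binding subunit of the assembly core, had 55.6, 61.2 and 54.5 FPKM in cKO PTU+T3 hearts, 29.5, 36.8 and 36.5 FPKM in cKO PTU hearts and 51.4, 51.9 and 47.0 FPKM in cKO chow hearts. In WT it had 52.8, 44.8 and 61.7 FPKM with PTU+T3, 31.9, 30.5 and 35.1 FPKM on PTU and 46.1, 45.0 and 44.1 FPKM on chow. Every PTU heart stood below every other heart (T3 over PTU 0.70, SE 0.0761, adjusted p = 9.70e-07). Polr2e, a jaw subunit, had 68.1, 88.2 and 75.4 FPKM in cKO PTU+T3 hearts, 114, 93.5 and 124 FPKM in cKO PTU hearts and 86.9, 102 and 111 FPKM in cKO chow hearts. WT hearts had 73.7, 65.4 and 89.5 FPKM with PTU+T3, 133, 120 and 134 FPKM on PTU and 95.9, 92.3 and 85.5 FPKM on chow. No heart given T3 reached the lowest PTU heart (-0.64, SE 0.0941, adjusted p = 2.61e-05). Polr2k, another zinc-binding subunit, ranged from 60.7 to 84.1 FPKM (median 67.03) with PTU+T3, from 40.8 to 59.2 FPKM (median 51.5) on PTU and from 42.8 to 60.4 FPKM (median 55.2) on chow, in 6 hearts each. Polr2f, the most abundant member, ranged from 98.6 to 163 FPKM (median 134) with PTU+T3, from 85.1 to 123 FPKM (median 98.0) on PTU and from 97.2 to 129 FPKM (median 117) on chow. T3 and PTU hearts were apart for Polr2k and overlapped for Polr2f. Polr2k rose by 0.46 (adjusted p = 0.00158), Polr2f by 0.41 (adjusted p = 0.00267) and Polr2h by 0.15 (adjusted p = 0.0368), the last lost without any 1 of 9 libraries (adjusted p up to 0.0994). Polr2k, Polr2l and Polr2h have near-identical copies of part of their sequence elsewhere in the genome, of which some reads may have been shared.

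**Figure D3:**
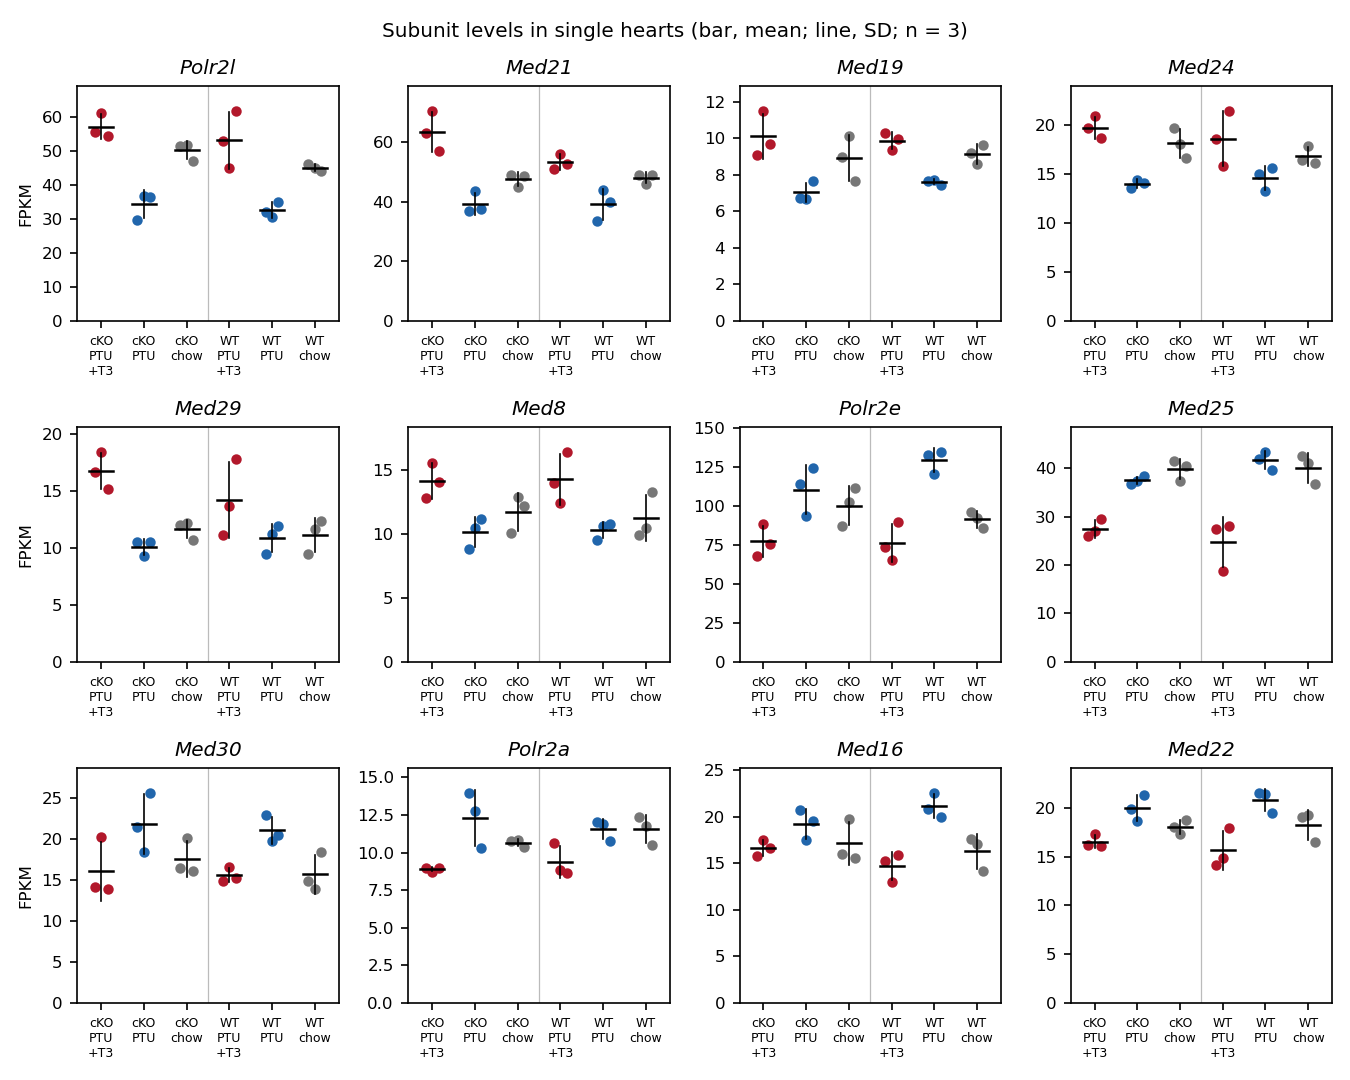
FPKM in single hearts of the 6 members with the smallest adjusted p among those that rose with T3 (Polr2l, Med21, Med19, Med24, Med29, Med8) and the 6 among those that fell (Polr2e, Med25, Med30, Polr2a, Med16, Med22); bars are means and lines are SD of 3 hearts. Polr2l and Med21 are lowest in the PTU hearts, and Med25 is lowest in the hearts given T3, between 18.7 and 29.4 FPKM.

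PTU alone, against chow and averaged over genotypes, moved fewer members, 9 of 38 (23.7%), beside 31.3% of all tested genes (14.7% higher and 16.6% lower). Lower on PTU were Polr2l (-0.50, adjusted p = 0.000160), Med21 (-0.29, adjusted p = 0.00638), Med19 (-0.27, adjusted p = 0.00738) and Med24 (-0.27, adjusted p = 0.00760). Higher were Med10 (0.40, adjusted p = 0.0163), Med30 (0.35, adjusted p = 0.0163), Polr2e (0.32, adjusted p = 0.0176), Med16 (0.26, adjusted p = 0.0150) and Med23 (0.19, adjusted p = 0.0251). The other 29 lay between -0.23 in Polr2f and 0.16 in Med22. The median size of change was 0.10 over the members and 0.16 over all tested genes. In 3 members, Polr2l, Med21 and Med24, all 6 PTU hearts lay below all 6 chow hearts, where 13.5% of tested genes separated. Polr2l, for example, ranged from 29.5 to 36.8 FPKM (median 33.5) on PTU and from 44.1 to 51.9 FPKM (median 46.6) on chow. Med10 ranged from 22.2 to 32.5 FPKM (median 29.6) on PTU and from 17.0 to 27.2 FPKM (median 20.8) on chow, with overlap. Without the atrial-rich hearts, where 16.9% of all tested genes were called, 3 of these calls remained, Med10, Med30 and Polr2l. Log2 fold changes of the other 6 were then -0.24 in Med19, -0.23 in Med21, -0.30 in Med24, 0.25 in Polr2e, 0.27 in Med16 and 0.20 in Med23 (adjusted p from 0.0507 to 0.194). Polr2e also lost its call without cKO chow replicate 1, and Med23 without cKO chow replicate 1, cKO PTU replicate 1 or WT chow replicate 3.

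The comparisons of T3 with PTU and of PTU with chow share the PTU hearts, so their values are not independent. Polr2l stood at 0.70 with T3 over PTU and -0.50 with PTU over chow, and Polr2e at -0.64 and 0.32, whereas Med25 stood at -0.59 and -0.01. Hearts given T3 were also set against chow hearts. In cKO 6 members differed from chow, 5 higher and 1 lower, beside 20.9% of all tested genes (11.7% higher and 9.15% lower). In WT 1 was lower, beside 14.7% of all tested genes (7.68% higher and 7% lower). Med25 was the one below chow in both genotypes, at -0.52 in cKO (SE 0.116, adjusted p = 0.00493) and -0.69 in WT (SE 0.116, adjusted p = 0.00137). The members above chow in cKO were Med29 (0.49, adjusted p = 0.0185), Polr2k (0.44, adjusted p = 0.0489), Med21 (0.40, adjusted p = 0.00991), Med14 (0.35, adjusted p = 0.0235) and Polr2g (0.30, adjusted p = 0.0336). The same genes in WT lay at 0.31, 0.34, 0.15, 0.25 and 0.18 and were not called. Without the atrial-rich hearts 0 of the 6 calls in cKO remained and Med25 kept its call in WT, where Polr2a was also called (-0.42, adjusted p = 0.0338). Of all tested genes 6.86% in cKO and 5.74% in WT were called in that setting. The 6 log2 fold changes in cKO were then -0.55 in Med25, 0.46 in Med29, 0.49 in Polr2k, 0.29 in Med21, 0.44 in Med14 and 0.34 in Polr2g (adjusted p from 0.0641 to 0.192). The cKO count also fell to 2 without cKO chow replicate 3 and to 3 without cKO PTU+T3 replicate 2, beside 13.5% and 12.9% of all tested genes.

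Between genotypes no member was called in any treatment or averaged over treatments, and neither was any other gene (0% of all tested genes). At an unadjusted p under 0.05 limma gave 3 members with PTU+T3, 1 on PTU, 0 on chow and 1 averaged over treatments, and the authors' deposited tables of the genotype comparisons held 0 members at a q under 0.05 (0.991%, 0.950% and 0.664% of their tested genes with PTU+T3, on PTU and on chow). Averaged over treatments the member differences ran from -0.12 in Med11 to 0.16 in Med31, and all of their 95% confidence intervals lay between -0.31 and 0.34. Med31, a small and highly conserved middle subunit, had the smallest p. It stood at 8.13, 7.86 and 8.70 FPKM in cKO PTU+T3 hearts, against 6.85, 6.02 and 6.99 FPKM in WT PTU+T3 hearts. On PTU it had 8.08, 6.26 and 7.88 FPKM in cKO and 6.65, 6.86 and 7.11 FPKM in WT, and on chow 7.56, 8.78 and 8.20 FPKM in cKO and 6.77, 8.13 and 7.52 FPKM in WT. The cKO hearts were above WT with T3 and overlapped WT on PTU and chow (averaged difference 0.16, 95% confidence interval 0.05 to 0.28, adjusted p = 0.99998, limma). Of its exon bases 26.3% overlap the gene 4930563E22Rik.

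The change with T3 was then taken within each genotype. In cKO hearts 18 members were called, 12 up and 6 down, beside 46.7% of all tested genes (24.9% higher and 21.8% lower). In WT hearts 13 were called, 7 up and 6 down, beside 44.1% (22.3% higher and 21.8% lower). Of the 19 called in either genotype, 12 were called in both, each in the same direction, namely Polr2l, Med21, Med8, Med14, Med19, Med24 and Polr2g up, and Polr2a, Med22, Med30, Med25 and Polr2e down. The share of all tested genes called in both was not taken, so this overlap is not shown to be particular to the members. Under every alternative tried 11 of the 18 calls in cKO and 6 of the 13 in WT were kept, among both Med19, Med21, Polr2l and Polr2e. Without the atrial-rich hearts 32.5% of all tested genes were called in cKO and 31.6% in WT. Among members 6 calls in cKO then ended, those of Med10, Med14, Med22, Med25, Med27 and Polr2g (adjusted p from 0.0655 to 0.106). In WT 4 ended, those of Med14, Med22, Med24 and Med8 (adjusted p from 0.0519 to 0.194). Med25, for example, then stood at -0.41 in cKO (adjusted p = 0.0700). Leaving out 1 library ended 4 calls in cKO (adjusted p up to 0.117), namely Med14 (PTU+T3 replicate 3), Med22 and Med30 (PTU replicates 1 and 3, PTU+T3 replicates 1 and 3) and Polr2g (PTU replicate 1, PTU+T3 replicates 1 and 2). In WT it ended 6 (adjusted p up to 0.111), namely Med14 (PTU replicate 1), Med24 (PTU replicate 2, PTU+T3 replicate 3), Med8 (PTU+T3 replicate 3), Med30 (PTU replicates 1 and 3, PTU+T3 replicates 1 and 3) and both Polr2a and Polr2g (PTU replicates 1 and 2, PTU+T3 replicates 2 and 3). The sign matched for 32 of 38 members (84.2%), beside 83.2% of all tested genes. Across the 38 genes, which are not independent replicates, Pearson's r of the changes was 0.85, beside 0.87 over all tested genes. Both changes come from one table with common normalization. Med29 rose by 0.68 in cKO (adjusted p = 0.000758) and lay at 0.34 in WT, Polr2c rose by 0.43 in cKO (adjusted p = 0.00296) and lay at 0.09 in WT, and Med16 lay at -0.19 in cKO and fell by 0.50 in WT (adjusted p = 0.00142). The test of the difference itself called 0 members and 0% of all tested genes in limma, with 1 member at an unadjusted p under 0.05, Polr2c, named after its values were seen (difference 0.34, 95% confidence interval 0.03 to 0.65, adjusted p = 0.696, limma).

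**Figure D4:**
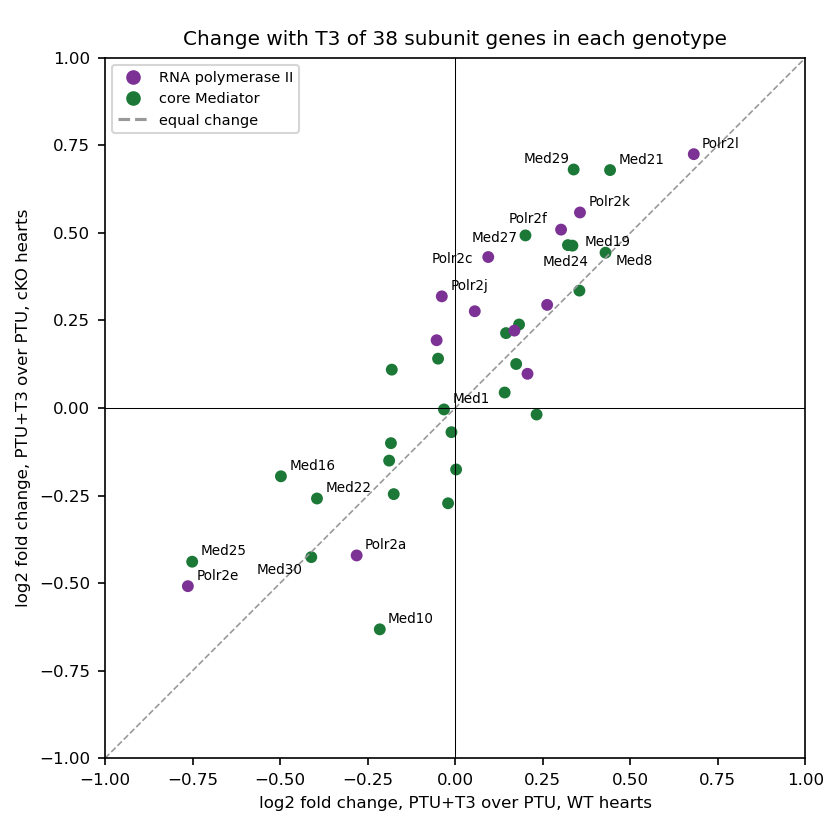
Log2 fold change with T3 (PTU+T3 over PTU) in cKO hearts, on the vertical axis, against that in WT hearts, on the horizontal axis, for the 38 members; the dashed line marks equal change. The points follow the line with r of 0.85, Polr2l at the upper end and Med25 and Polr2e at the lower, and Polr2c lies above it.

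For PTU against chow, 4 members were called in cKO (1 up, 3 down), beside 16% of all tested genes (6.44% higher and 9.59% lower). In WT 3 were called (2 up, 1 down), beside 16.8% (8.02% higher and 8.76% lower). Polr2l was called in both, at -0.54 in cKO (adjusted p = 0.00371) and -0.46 in WT (adjusted p = 0.00840). Without the atrial-rich hearts Polr2l stood at -0.56 in cKO (adjusted p = 0.0768) and -0.47 in WT (adjusted p = 0.123), and none of these 7 calls was kept, while Med30 was called in WT (0.46, adjusted p = 0.0321). The share of all tested genes called was then 4.11% in cKO and 5.26% in WT. The sign matched for 25 of 38 members (65.8%), beside 73.5% of all tested genes. Pearson's r of the changes was 0.62 over the members and 0.69 over all tested genes. The difference of the PTU change between genotypes called 0 members and 0% of all tested genes in limma, with 2 members at an unadjusted p under 0.05, Polr2i (-0.39) and Med10 (0.52), both at an adjusted p of 0.764. In the authors' deposited table of WT PTU+T3 against WT PTU, 5 members had a q under 0.05 (35.6% of its tested genes), Med14, Med21, Med8 and Polr2l higher and Med25 lower. In that of WT PTU against WT chow 1 did (16.8%), Polr2l, lower, and in that of WT PTU+T3 against WT chow 1 did (12.4%), Med25, lower. Each of these genes had the same call in limma for that comparison. Of the 13 members called by limma in WT with T3, the other 8 were not called in the authors' deposited table, with q of 0.804 for Polr2e, 0.798 for Med16, 0.716 for Med19, 0.179 for Polr2g, 0.110 for Polr2a, 0.0859 for Med22, 0.0845 for Med30 and 0.0638 for Med24. Of the 3 called by limma in WT on PTU, Med16 and Polr2e were not called in the authors' deposited table (q of 0.903 and 0.925).

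The summed FPKM of core Mediator averaged 377 ± 12.3 in cKO PTU+T3 hearts, 357 ± 12.0 in cKO PTU hearts and 360 ± 2.91 in cKO chow hearts, and 356 ± 16.8, 364 ± 13.8 and 358 ± 8.29 in WT hearts with PTU+T3, on PTU and on chow (SD, n = 3 each). Single Mediator sums ran from 365 to 390 FPKM in cKO PTU+T3 hearts and from 345 to 369 FPKM in cKO PTU hearts, with overlap. In WT they ran from 345 to 376 FPKM with PTU+T3 and from 349 to 376 FPKM on PTU, with overlap. Med25 is abundant and fell with T3, so leaving it out tilts the sum towards a rise. Without Med25 the sum was 336 to 363 FPKM in cKO PTU+T3 hearts and 307 to 331 FPKM in cKO PTU hearts. The separation in cKO rests on that choice. In WT the sum without Med25 was 321 to 348 FPKM with PTU+T3 and 307 to 332 FPKM on PTU, with overlap. The polymerase sum averaged 673 ± 51.9 in cKO PTU+T3 hearts, 560 ± 55.5 in cKO PTU hearts and 610 ± 25.98 in cKO chow hearts. In WT hearts it averaged 623 ± 74.3 with PTU+T3, 599 ± 23.3 on PTU and 578 ± 24.8 on chow. Polymerase sums with T3 ran from 640 to 732 in cKO, above those on PTU at 513 to 621, and in WT from 561 to 706 with T3, overlapping 578 to 624 on PTU. Total FPKM over all genes was also apart in cKO, at 669532 to 766329 with PTU+T3 and 551109 to 643609 on PTU. In WT the total was 604539 to 743572 with PTU+T3 and 582154 to 691491 on PTU. The sums of the 2 complexes were not scaled to these totals. They weigh abundant subunits most, and neither they nor their difference between genotypes was tested.

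**Figure D5:**
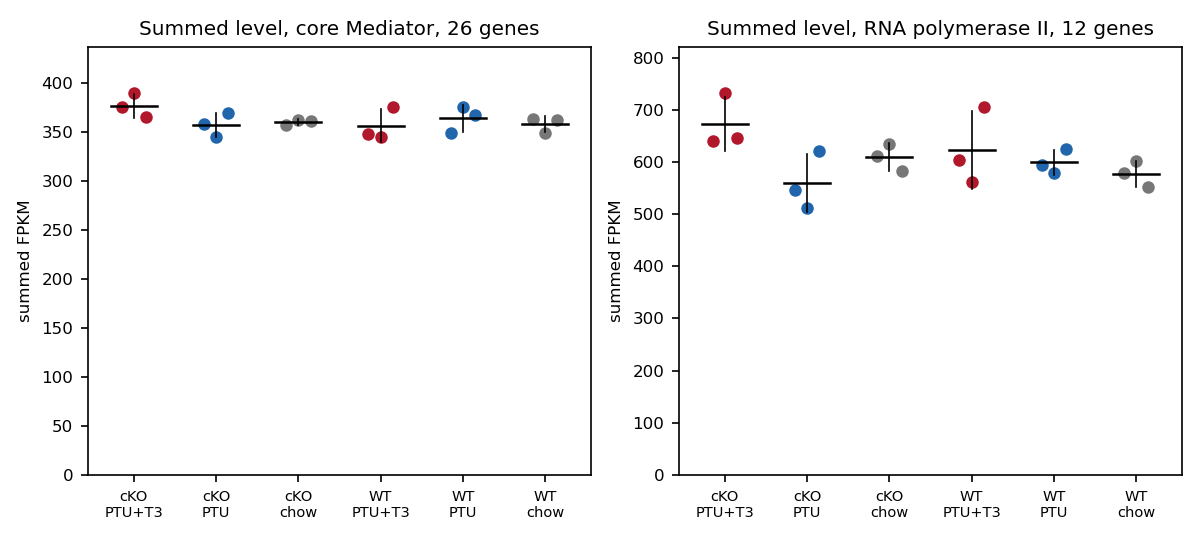
Summed FPKM of the 26 core Mediator genes (left panel) and of the 12 polymerase genes (right panel) in single hearts by group; bars are means and lines are SD of 3 hearts. Mediator sums stay between 345 and 390, and the polymerase sums have their highest group mean in cKO PTU+T3 hearts, whose single values lie at 640 to 732.

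The other genes of this machinery also moved in both directions, as did tested genes in general. With T3 59.6% of all tested genes were called (30.3% higher and 29.3% lower). On PTU 31.3% were (14.7% higher and 16.6% lower). Of 7 kinase module genes, 1 rose with T3, the cyclin Ccnc (0.32, adjusted p = 0.00186), and 3 fell, Med12 (-0.41, adjusted p = 3.67e-05), the kinase Cdk19 (-0.37, adjusted p = 3.90e-05) and Med13l, the paralog of Med13 (-0.36, adjusted p = 0.000365). On PTU the last 3 were higher than on chow (Med12 0.17, Cdk19 0.19 and Med13l 0.20, with adjusted p of 0.0445, 0.0167 and 0.0424). Of 31 general transcription factor genes, 11 rose and 9 fell with T3, led by Gtf2f1 (0.69), a subunit of TFIIF, and by Gtf2e1 (-0.71), of TFIIE, Gtf2b (-0.63), which is TFIIB, and Taf4a (-0.45), of TFIID. On PTU 4 were higher and 2 lower than on chow, with Gtf2b at 0.39 and Gtf2f1 at -0.33. Of 24 pausing and elongation genes, 5 rose and 9 fell, among them Cdk9 (-0.51), the kinase that releases paused polymerase, Supt5 (-0.44), and the NELF subunits Nelfcd (0.44) and Nelfb (-0.32). On PTU 4 were higher and 2 lower, with Nelfe at 0.40 and Cdk9 at 0.29.

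Of 17 genes for polymerase assembly and the tail of Polr2a, 5 rose and 5 fell with T3, with Polr2m at 0.65, Ccnk at 0.31, Ssu72, a phosphatase of that tail, at 0.25 and Gpn3, an assembly factor, at -0.49. On PTU 2 were higher and 1 lower than on chow, with Gpn3 at 0.34 and Polr2m at -0.29. Of 6 genes specific to polymerase I, Cd3eap (0.27) and Znrd1 (0.21) rose with T3 and Polr1e fell (-0.69). On PTU limma called 0 of the 6, with 2 at an unadjusted p under 0.05. Genes specific to polymerase III had 2 up and 2 down of 11 in both comparisons. With T3 these were Polr3c (0.56), Polr3k (0.47), Polr3g (-0.46) and Polr3gl (-0.61), and on PTU Polr3gl stood at 0.40 and Polr3c at -0.22. Of the pair common to polymerases I and III, Polr1d rose by 0.25 and Polr1c fell by 0.21 on the log2 scale. These calls are at an adjusted p under 0.05 in limma and are to be read beside 59.6% of all tested genes for T3 and 31.3% for PTU.

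Sequence composition of the members is given as a description. The 16 that rose with T3 had a median transcript length of 1696.5 bases and 50.2% GC, the 8 that fell 3097 bases and 55.8% GC, and the 14 not called 1501.5 bases and 48.5% GC. Over all tested genes with a transcript the medians were 2755 bases and 50.2% GC for those that rose, 3438 bases and 50.6% GC for those that fell and 3104 bases and 50.2% GC for the rest. Split by GC content into bins of equal size over all genes, members in the highest bin had 5 rising and 5 falling of 15, those in the middle bin 5 and 2 of 13, and those in the lowest bin 6 and 1 of 10. Of all tested genes with a transcript, 29.9% rose and 30.2% fell in the highest bin. In the middle bin 31.2% rose and 29.8% fell, and in the lowest bin 30.4% rose and 27.7% fell. Polr2e and Med16 lie on chromosome 10 within one deposited locus of 672333 bases that spans many genes.

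Markers of other cells moved with treatment beside these results. Counts of markers called with T3 are to be read beside 30.3% of all tested genes called higher and 29.3% lower. Of 10 macrophage genes 8 were higher with T3 than on PTU, and their summed level was 505 to 593 FPKM in cKO PTU+T3 hearts, 195 to 646 FPKM in cKO PTU hearts and 404 to 538 FPKM in cKO chow hearts. In WT it was 493 to 835 FPKM with PTU+T3, 194 to 295 FPKM on PTU and 343 to 621 FPKM on chow. All 5 tested cycling genes were higher with T3, with sums of 13.5 to 16.5 FPKM in cKO PTU+T3 hearts, 2.34 to 8.24 FPKM in cKO PTU hearts and 3.72 to 5.80 FPKM in cKO chow hearts. In WT those sums were 15.7 to 21.1 FPKM with PTU+T3, 1.80 to 3.24 FPKM on PTU and 3.82 to 5.68 FPKM on chow. Smooth muscle and pericyte genes summed to 459 to 586 FPKM in cKO PTU+T3 hearts, 260 to 333 FPKM in cKO PTU hearts and 377 to 457 FPKM in cKO chow hearts, and to 551 to 799, 242 to 271 and 379 to 458 FPKM in WT hearts with PTU+T3, on PTU and on chow. Of single genes in that list only 1 of 7 was called higher and 1 lower with T3, so the sum does not stand for the list. The sum weighs abundant genes most, such as Acta2 and Rgs5, with medians of 182 and 121 FPKM over all hearts. Endothelial genes had 2 of 9 higher, fibroblast genes 1 of 8 lower, and erythroid genes 1 of 3 higher. Among the erythroid genes Hbb-bs was at the floor in 11 libraries. Atrial genes had 0 of 5 called in limma, with 0 at an unadjusted p under 0.05, and Bmp10 was at the floor in 10 libraries. The part of these markers in the members' changes was not tested.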

How the data were processed

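RNA-seq of 18 mouse hearts was analysed. Per the labels' protocols libraries were made with the TruSeq RNA kit V2 from polyadenylated RNA. Per the submitters' processing notes Bowtie2, Cufflinks and mm10 were used; neither the gene annotation nor any version is named. The authors deposited FPKM per gene and library, and tables of 6 comparisons with FPKM, p-value and q-value columns; counts were not used here, so depth is unknown and gives no interval. Each library was named by its column and grouped by its labels.

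Of 24341 genes, 12587 reached 1 FPKM in 3 or more libraries and were tested as log2(FPKM + 1), which understates changes of low genes. The lowest deposited value is 0.01, which marks genes at the floor, and 2 rows with 5 cells that hold no number were left out. One limma model (version 3.58.1, R 4.3.3, trend and robust) over all 6 groups, with 12 residual degrees of freedom, gave 14 comparisons. P-values were adjusted by Benjamini-Hochberg over all tested genes and called under 0.05, and intervals are 95%. The procedure was tested on simulated data in which 200 of 12587 genes changed. For T3 against PTU averaged over genotypes it recovered 34.1% of 1.25-fold and 96% of 2-fold changes. Within WT it recovered 1.5% and 89.3%. In the real data 59.6% of tested genes were called with T3 averaged over genotypes, so recovery there may differ. Sequences came from RefSeq on GRCm38.p6, and gene positions and overlaps from GENCODE M21 with blastn 2.17.0.

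The members and lists were chosen with earlier results of these data known. Named were all 38 members, Med13, hormone-response genes and, from each other list, up to 4 called genes with the smallest adjusted p for T3 and up to 2 for PTU. Values per heart are given for the 6 members with the smallest adjusted p in each direction with T3, and for Med1, Polr2a, Med14 and Med31, of which Med14 and Med31 were added after their values were seen. Alternatives were a pseudocount of 0.1, no filter, median-ratio scaling, no trend, leaving out the atrial-rich heart of each group and leaving out each library.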

Additional observations from a re-analysis of the deposited data

How the results depend on the processing

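Counts of members called kept within 1.5 times of those reported under the pseudocount of 0.1, no filter, median-ratio scaling and the model without trend, in all 14 comparisons. Without the atrial-rich heart of each group, PTU against chow gave 0 members in cKO, 1 in WT and 3 averaged. Of all tested genes 4.11%, 5.26% and 16.9% were then called, against 16%, 16.8% and 31.3% with all hearts. PTU+T3 against chow gave 0 members in cKO and 2 in WT, beside 6.86% and 5.74% of all tested genes. The setting also leaves fewer libraries. T3 against PTU then gave 12 in cKO, 9 in WT and 20 averaged, beside 32.5%, 31.6% and 47.7% of all tested genes. Leaving out each library in turn, T3 against PTU gave 15 to 20 in cKO, 9 to 15 in WT and 20 to 25 averaged. Over all tested genes the shares called were 39.4% to 47.3%, 37.6% to 44.9% and 55.8% to 59.6%. PTU against chow gave 1 to 5 in cKO, 1 to 4 in WT and 7 to 11 averaged, and PTU+T3 against chow gave 2 to 7 in cKO and 1 to 3 in WT. All tested genes called were 7.59% to 16.9%, 10.7% to 17.9% and 26.2% to 32.3% for PTU against chow. For PTU+T3 against chow they were 12.9% to 21.6% in cKO and 7.54% to 15.4% in WT. The genotype comparisons and interactions gave 0 to 0. The count for PTU in cKO was 1 without cKO chow replicate 1, cKO chow replicate 2 or cKO PTU replicate 1, and that in WT was 1 without WT PTU replicate 1. For PTU+T3 against chow in WT it was 2 without WT chow replicate 3, WT PTU+T3 replicate 3 or cKO PTU replicate 3, and 3 without WT PTU+T3 replicate 1. Med17 passed under median-ratio scaling (adjusted p = 0.0461) and without trend (adjusted p = 0.0499). Among calls with T3 averaged over genotypes, leaving out a library ended those of Med28 (WT PTU 3, WT PTU+T3 3 and cKO PTU 2), Med20 (WT PTU 2, WT PTU+T3 3, cKO PTU 1 and 2, and any of cKO PTU+T3), Polr2b (WT PTU 2, WT PTU+T3 1 and 2, cKO PTU 2, cKO PTU+T3 1 and 3) and Polr2h (WT PTU 1 and 2, WT PTU+T3 2 and 3, cKO PTU 1 and 2, and any of cKO PTU+T3), by replicate number. Polr2h kept its call under 14 of 23 alternatives, Polr2b and Med20 under 16 and Med28 under 20. Calls kept under every alternative were 17 of 24 for T3 averaged over genotypes, 3 of 9 for PTU averaged, 0 of 4 and 0 of 3 for PTU in cKO and WT, and 0 of 6 and 1 of 1 for PTU+T3 against chow in cKO and WT. The cause of these shifts was not tested. No paired analysis was possible because each label carries a number of its own that no other library shares; the replicate numbers used here follow the order of deposition and pair nothing. Unknown depth limits what can be said of low values such as those of Med18.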
